A study of Mus musculus with 4 samples.

Results

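The insulin-like growth factor (IGF) axis was followed here through 10 genes: the ligands Igf1 and Igf2, the receptors Igf1r and Igf2r, and the binding proteins Igfbp2 to Igfbp7. They are 10 of the 29924 gene names on the array and were read from every probe that carried one of these symbols, which gave 16 of 39429 probes. The samples were cultures of primary kidney tubular cells, grown in a renal growth medium, from male mice of 8 weeks on the B6.J background. The genotypes compared were wild type and SerpinB2-/-, with 2 samples of each, and all 4 cultures had received the phorbol ester PMA, an activator of protein kinase C, at 100 ng/ml. There were no cultures without PMA, so every value describes PMA-treated cells. The labels do not say whether samples of a genotype came from separate animals or cultures, so a p-value here speaks only for the spread among these samples, which may be technical.

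IGF-1 and IGF-2 are small secreted proteins that signal through the tyrosine kinase receptor encoded by Igf1r, while the receptor encoded by Igf2r carries IGF-2 and lysosomal enzymes into the cell without such a kinase. The IGF binding proteins hold the ligands outside cells, and proteases that cut them release the ligand. In the kidney, IGF-1 acts on tubular growth and repair, and the binding proteins are made by different cell types of the nephron, its vessels and its stroma.

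RNA was hybridised to one-colour arrays on which each probe was printed as 4 spots, and signals are given in scaled units, set so that the 75th percentile of every array was 2003. Before scaling, this percentile lay between 1902 and 2143, and 59.4% to 62.1% of probes were well above background. Serpinb2 gave 3207 and 3276 units in the wild type samples and was not well above background in either SerpinB2-/- sample, at least 139.7-fold lower. Which part of the gene was deleted is not given in the sources used here. Of 15 markers of tubular epithelium 14 were measured, among them Cdh16 and Krt8 and the proximal tubule receptors Lrp2 and Cubn. Slc5a2, the glucose transporter that defines the early proximal tubule, was not well above background in either genotype.

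The probes that carry the results are shown in part, each 5′ to 3′ as printed on the array, because a signal speaks only for the transcripts that hold these bases. Positions are those of the array annotation on mm9, and the exon or UTR that holds each probe was not analysed here. The first 30 of the 60 bases are given for Igfbp3 and Igfbp6, the genes that passed the test, and for the second probe of Igfbp2. The last 30 bases are given for the first probe of Igfbp2, with capitals on the stop codon that closes its 20 codons (0 other stops in that frame), and for Igfbp7, with capitals on AATAAA.
Igfbp3 (A_52_P253179): gcagttttccaaaaacacagatttcttttc
Igfbp6 (A_66_P139546): ctgtcacccttgggcctttacacagctagt
Igfbp2, first probe (A_55_P2056729): ggtggggcccatgcccaaagtgtgcagTAA
Igfbp2, second probe (A_66_P135391): aggagttcccagttttgacacatgtattta
Igfbp7 (A_55_P2018611): aaacaaaacaAATAAAattcttatcacaac
The letters AATAAA, the hexamer found before many polyadenylation sites, were searched on the printed strand and were in 1 of the 16 IGF axis probes and in 12.6% of all probes. Both probes of Igfbp2 lay on one stretch of chromosome 1, 76 bases apart, and shared no sequence.

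For Igf1 the array held 5 probes, of which 4 were measured. A pair of them overlapped by 40 bases and so were not separate readings, as the capitals in these 30-base stretches show.
Igf1 (A_55_P2085984), bases 11 to 40: aacaataataAGTCCAATAACATTACAAAG
Igf1 (A_55_P2031631), bases 1 to 30: AGTCCAATAACATTACAAAGatgggcattt

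Of the 16 probes, 13 had more than 50% of their spots well above background on both arrays of at least 1 genotype and were tested, and they covered 9 of the 10 genes. The threshold was an adjusted p of 0.05 (limma, Benjamini-Hochberg over all 24172 probes tested). Among the 13, 1 probe was higher in SerpinB2-/- cells, that of Igfbp6, and 1 was lower, the main probe of Igfbp3. That is 7.69% in each direction, where 5.79% of all tested probes were higher and 10.2% lower, so the share of IGF axis probes called was near that of the array as a whole. Scaled by the median instead, all tested probes gave 5220 higher and 1623 lower calls in place of 1400 and 2458, and the IGF axis 2 higher and 2 lower. The genotypes did not overlap for 9 of the 13 probes (69.2%) and for 64.7% of all tested probes. The median log2 difference was -0.04 over the 13 probes and -0.01 over all. The median of the unsigned differences was 0.26 over the 13 probes and 0.14 over all.

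**Figure D1:**
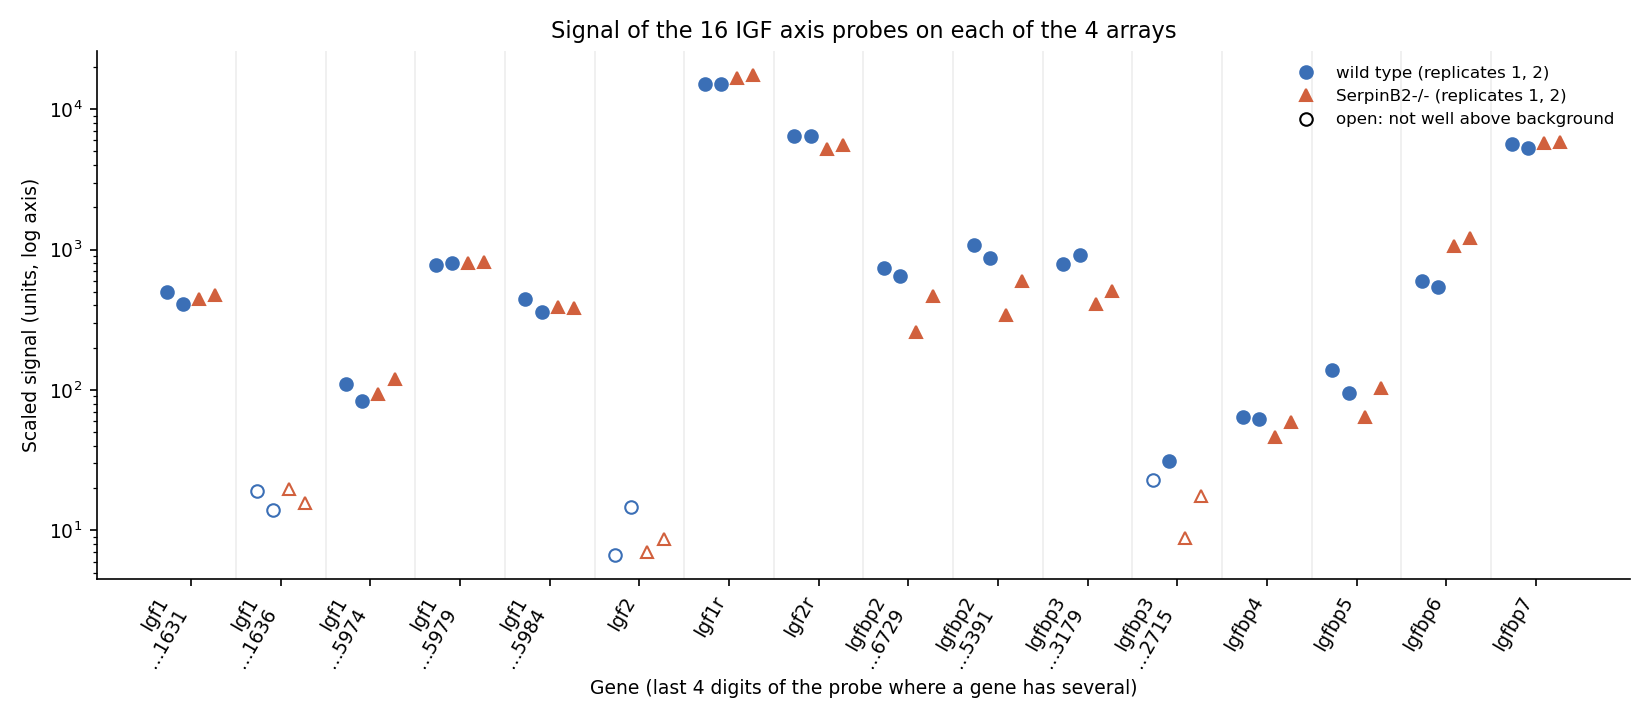
Scaled signal (log axis) of each IGF axis probe on the 4 arrays, with wild type as circles and SerpinB2-/- as triangles; open symbols were not well above background. The SerpinB2-/- samples of Igfbp6 (1067 and 1201) lie above the wild type samples (594 and 543), and those of Igfbp3 (411 and 505, the brighter of its probes) lie below (791 and 923).

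The ligand Igf1, the circulating and local growth factor of the axis, did not pass the test at any probe. Its brightest probe (chr10:87378456-87378515, mm9, plus strand) is listed for another transcript than the remaining 4 and gave 779 and 806 units in wild type against 807 and 823 in SerpinB2-/- cells. All 4 values lay within a narrow range, and the log2 difference was 0.04 ± 0.06 (SE, n = 2 per group, 95% interval -0.11 to 0.19, adjusted p = 0.665 by limma). The overlapping probes gave 0.03 ± 0.11 (chr10:87393581-87393640) and -0.04 ± 0.11 (chr10:87393561-87393620), with wild type replicate 1 as the highest sample at each. Their signs changed with other scalings. The probe farthest along the gene (chr10:87399581-87399640) gave 111 and 83.9 units in wild type against 94.0 and 119 in SerpinB2-/- cells, a difference of 0.13 ± 0.18 with groups that overlapped. These intervals do not show that Igf1 was equal: the widest reached from -0.32 to 0.59.

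Igf2, the fetal growth factor that is silenced in most adult mouse tissues, was not well above background in any sample. Its single probe (chr7:149839661-149839720, mm9, minus strand) gave 6.74 and 14.6 units in wild type against 7.04 and 8.65 in SerpinB2-/- cells, and it was not tested. A change of Igf2 was not detectable at this signal.

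Both receptors were bright, and their small differences missed the threshold. Igf1r, the kinase that binds IGF-1 and IGF-2, gave 15022 and 15047 units in wild type against 16782 and 17587 in SerpinB2-/- cells (chr7:75378461-75378520, plus strand). Both SerpinB2-/- samples lay above both wild type samples, by 0.19 ± 0.06 on the log2 scale (1.14-fold, 95% interval 0.04 to 0.35, adjusted p = 0.0940 by limma). Igf2r, which clears IGF-2 and sorts lysosomal enzymes, gave 6461 and 6435 units in wild type against 5171 and 5598 in SerpinB2-/- cells. Here both SerpinB2-/- samples lay below both wild type samples, with a difference of -0.26 ± 0.07 (95% interval -0.43 to -0.09, adjusted p = 0.0612). The intervals of both genes leave out 0 because they are not adjusted for the number of probes. Scaled by the median, which placed the median difference of all probes at 0.13, Igf1r passed (0.33, adjusted p = 0.0218 by limma). With scaling by detected probes Igf2r passed (-0.30, adjusted p = 0.0442), and with a trended fit both did. The probe of Igf2r is listed at chr17:12875253-12875263, an interval shorter than the probe itself.

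Igfbp6, which binds IGF-2 in preference to IGF-1, rose in SerpinB2-/- cells. Its probe (chr15:101979852-101979911, plus strand) gave 594 and 543 units in wild type against 1067 and 1201 in SerpinB2-/- cells. The genotypes were well apart, while replicates differed by 0.13 and 0.17 on the log2 scale. The difference was 1.00 ± 0.09 (1.99-fold, adjusted p = 0.00788 by limma). It kept its direction and its side of the threshold in 15 of 16 alternatives, from 0.91 to 1.13, and in the other one, with dim probes kept, the adjusted p was 0.0633. The single probe is the only reading of the gene.

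Igfbp3, the main carrier of IGF-1 in blood and a target of p53, fell in SerpinB2-/- cells. Its main probe (chr11:7106594-7106653, minus strand) gave 791 and 923 units in wild type against 411 and 505 in SerpinB2-/- cells. All SerpinB2-/- values were lower than all wild type values, with a difference of -0.91 ± 0.13 (1.88-fold lower, adjusted p = 0.0175 by limma). Without wild type replicate 2 the difference was -0.80 and did not pass, in a fit with a single wild type sample. With dim probes kept the adjusted p was 0.0902 by limma. A dim probe listed for a further transcript (chr11:7107949-7108008) gave 22.9 and 31.2 units in wild type against 8.80 and 17.5 in SerpinB2-/- cells. It was well above background in 1 wild type sample only and was not tested.

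Igfbp2, a binding protein abundant in fetal tissue, differed by about as much as Igfbp6 and Igfbp3 but did not pass. Its first probe (chr1:72898677-72898736, plus strand) gave 735 and 649 units in wild type against 258 and 468 in SerpinB2-/- cells, and the second (chr1:72898813-72898872) gave 1086 and 867 against 342 and 600. At both probes SerpinB2-/- replicate 1 was far below replicate 2, by 0.86 and 0.81 on the log2 scale, where replicates of all tested probes differed by a median of 0.08. The differences were -0.99 ± 0.28 (adjusted p = 0.0777 by limma) and -1.10 ± 0.28 (adjusted p = 0.0612). The spread between the 4 spots of a probe was at most 0.13 (SD, log2) on any array, so the gap between the SerpinB2-/- samples was larger than the spread of spots. Without SerpinB2-/- replicate 2 both probes passed, at -1.42 and -1.51 (adjusted p = 0.00760 and 0.0115), and without SerpinB2-/- replicate 1 the first passed at -0.56 (adjusted p = 0.0436) and the second did not at -0.69 (adjusted p = 0.0534). The second also passed with normexp correction (adjusted p = 0.0366), scaled by the median (0.0443) and among probes measured on all 4 arrays (0.0498), and both passed with a trended fit (0.0389 and 0.0279).

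**Figure D2:**
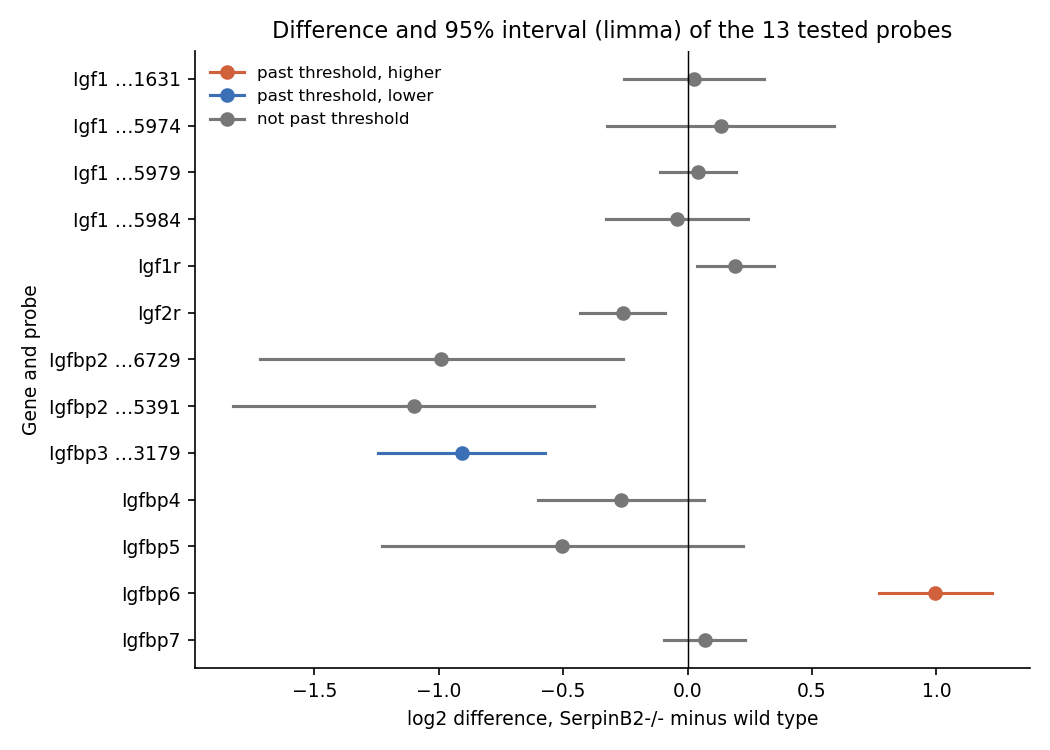
Log2 difference (SerpinB2-/- minus wild type) of the 13 tested IGF axis probes, as points with the 95% interval of the limma fit, not adjusted for multiple testing. Igfbp6 (1.00) and the main Igfbp3 probe (-0.91) passed the threshold; the 2 Igfbp2 probes lay at -0.99 and -1.10 with intervals of over 1 unit in width, and Igfbp7 lay at 0.07.

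Igfbp5, the binding protein next to Igfbp2 on the chromosome, was also lowest in SerpinB2-/- replicate 1, with groups that overlapped. It gave 139 and 95.4 units in wild type against 63.9 and 103 in SerpinB2-/- cells (chr1:72904829-72904888, minus strand), a difference of -0.50 ± 0.28 (adjusted p = 0.270 by limma). Both genes lie on the chromosome of Serpinb2, 36.5 Mb from its probe. Igfbp4, whose cleavage by the protease PAPP-A releases IGF, was dim, with 64.4 and 62.1 units in wild type against 46.2 and 59.6 in SerpinB2-/- cells. Its difference was -0.27 ± 0.13 (adjusted p = 0.213), and replicates of the SerpinB2-/- group differed by more than that (0.37). It passed without SerpinB2-/- replicate 2 (-0.45, adjusted p = 0.0482).

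Igfbp7, a binding protein with low affinity for IGF that is found in vessels and in injured tubules, gave 5694 and 5333 units in wild type against 5759 and 5795 in SerpinB2-/- cells (chr5:77778271-77778330, minus strand). The difference was 0.07 ± 0.06 (adjusted p = 0.494 by limma), with a 95% interval of -0.10 to 0.23. Among the binding proteins, the tested probes of Igfbp2, Igfbp3, Igfbp4 and Igfbp5 had values below 0, and those of Igfbp6 and Igfbp7 had values above 0. These signs held under each scaling tried.

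Markers of other cells moved in the same samples. Of 14 endothelial markers 13 were measured, and 11 fell and 1 rose (median -1.08; of all genes at their brightest probe 9.76% were lower and 6.03% higher). They included Plvap at -1.78 ± 0.23 and Robo4 at -1.77 ± 0.22, against Kdr at 0.05 ± 0.11 and Flt1, which rose by 0.77 ± 0.06. Their summed signal was 18099 to 18549 units in wild type against 12595 to 15097 in SerpinB2-/- cells. Brightest in the wild type sum were Egfl7 (-0.75 ± 0.14), Kdr and Flt1, and the defining marker Tek was not well above background. In 13 of the 13, SerpinB2-/- replicate 1 was below replicate 2, where 54.9% of all tested probes had that order. It was also the order of 13 of 14 tubular and 10 of 12 fibroblast and pericyte markers, but of 2 of 12 leukocyte markers. The tested probes of Igfbp2 to Igfbp7 had the same order, Igfbp6 and Igfbp7 included. So had those of Igf1r, Igf2r and, except A_55_P2085984, Igf1, so the order was not particular to the binding proteins. The number that fell was 5 without either wild type replicate and 11 without either SerpinB2-/- replicate. In bulk RNA, fewer cells of a type and less RNA per cell cannot be told apart, and the part of the endothelial markers in the binding protein values was not tested.

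Of 14 fibroblast and pericyte markers 12 were measured, and 4 rose (33.3%, against 6.03% of all genes) and 0 fell (median 0.33). Their summed signal was 290606 to 358268 units in wild type against 380142 to 439892 in SerpinB2-/- cells. The brightest genes in that sum, Acta2 (0.31 ± 0.16), Col1a2 (0.28 ± 0.10) and Col1a1 (0.35 ± 0.11), did not pass. Wild type replicate 1 was below replicate 2 in 1 of the 12. Postn and Col6a3, matrix genes of stromal cells, were at 1.09 ± 0.16 and 0.98 ± 0.08, in the same direction as Igfbp6, while Thy1 (-0.64 ± 0.35) and Dcn (-0.33 ± 0.13) did not pass. Lum and Rgs5 were not well above background. The number that rose was 8 when scaled by the median and 2 when wild type replicate 2 was left out. Their part in the rise of Igfbp6 was not tested. Of 12 leukocyte markers 8 fell (66.7%, against 9.76% of all genes) and 0 rose (median -0.54), and with quantile normalization 4 fell. Their summed signal was 24777 to 26777 units in wild type against 20480 to 21469 in SerpinB2-/- cells. Itgam was the brightest gene in that sum, with 12549 and 11326 units in wild type against 11020 and 11387 in SerpinB2-/- cells. Fcgr1 (-1.08 ± 0.06) and Coro1a (-1.02 ± 0.10) were lowest, with Cd14 (-0.03 ± 0.06) and Itgam (-0.09 ± 0.07) at the other end. With wild type replicate 1 left out 3 leukocyte markers fell, and with wild type replicate 2 or SerpinB2-/- replicate 2 left out 4 did. Of the tubular markers 5 fell and 1 rose (35.7% and 7.14% of those measured, against 9.76% and 6.03% of all genes). Their summed signal was 574975 to 576162 units in wild type against 458811 to 481840 in SerpinB2-/- cells. Most of that sum came from Krt18 (-0.23 ± 0.07, not passing), Krt8 (-0.29 ± 0.06) and Cdh16 (-0.51 ± 0.10). The tubular markers ran from Cdh1 at -0.79 ± 0.07 and Epcam at -0.58 ± 0.11 to Cdh6 at 0.27 ± 0.08 and Hnf4a at 0.57 ± 0.08. Lrp2 (0.01 ± 0.07), Cubn (0.01 ± 0.06) and Aqp1 (-0.01 ± 0.09) were near 0. Scaled by the median, 3 tubular markers fell and 3 rose. With wild type replicate 1 left out 3 fell, and with any of the other arrays left out only Cdh1 did. Of 5 podocyte markers 4 were measured, and Wt1 rose by 0.80 ± 0.14, with Podxl at -0.03 ± 0.12, Nphs1 at -0.06 ± 0.07 and Synpo at -0.47 ± 0.15. Wt1 no longer passed when wild type replicate 2 or SerpinB2-/- replicate 2 was left out.

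**Figure D3:**
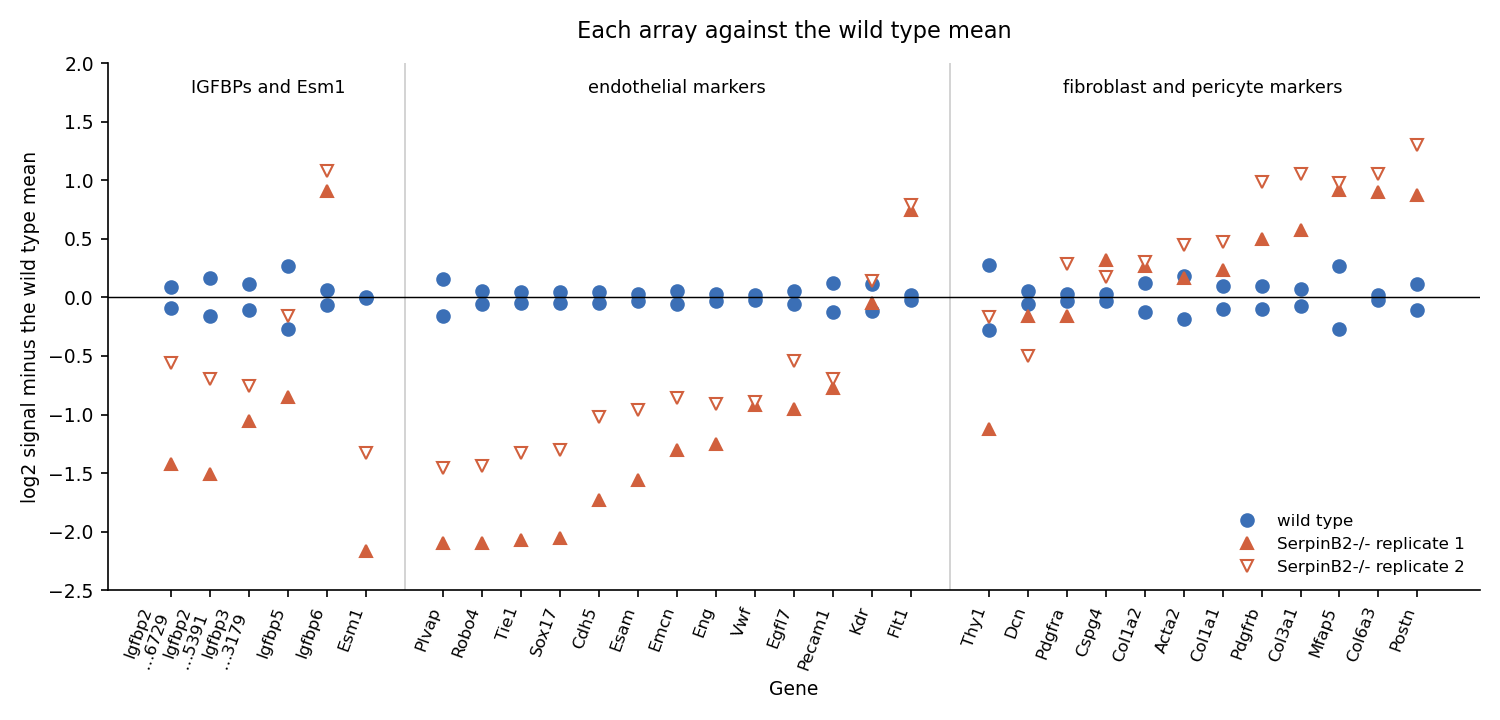
Log2 signal of each array minus the wild type mean for tested probes of 4 binding protein genes and Esm1, for endothelial markers and for fibroblast and pericyte markers. Filled triangles (SerpinB2-/- replicate 1) lie below open triangles (replicate 2) at Igfbp2, Igfbp3, Igfbp5, Igfbp6 and Esm1, in 13 of 13 endothelial markers and in 10 of 12 fibroblast and pericyte markers.

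The rest of the IGF pathway was read from 71 genes in 6 lists, each gene at its brightest probe. Of the 62 measured, 4 rose (6.45%) and 9 fell (14.5%), against 6.03% and 9.76% of all genes, with a median of -0.01 in the lists and 0.01 over all genes. Of the 13 genes called, 11 remained when SerpinB2-/- replicate 1 was left out and 7 when SerpinB2-/- replicate 2 was. With a wild type array left out, 5 remained (replicate 1) or 3 (replicate 2: Cdkn1c, Plagl1 and Stc2). Over all 98 tested probes of these genes, 7 were higher and 16 lower, where 5.79% of all tested probes were higher and 10.2% lower. Scaled by the median, the 98 gave 18 higher and 15 lower, and all 24172 tested probes gave 5220 and 1623.

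**Figure D4:**
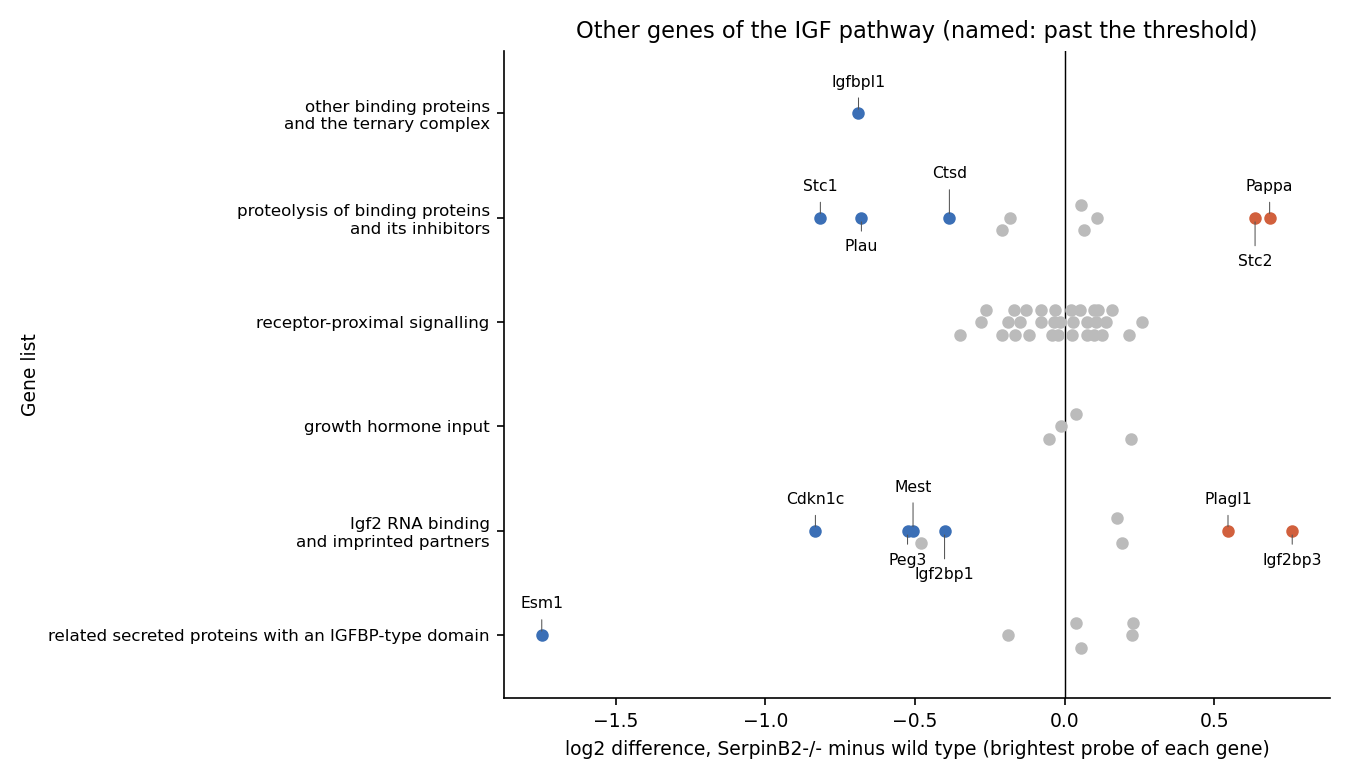
Log2 difference (SerpinB2-/- minus wild type) of 62 measured pathway genes by list, with named coloured points past the threshold (orange higher, blue lower) and grey points not past it. The 32 genes of receptor-proximal signalling lie between -0.35 and 0.26, and Esm1 lies lowest at -1.75.

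In signalling below the receptor, 32 of 34 genes were measured and 0 passed by limma, where 6.03% of all genes were higher and 9.76% lower. Of the 32, 6 were at an unadjusted p under 0.05. Other settings gave calls in both directions: 4 higher when scaled by the median, 3 lower when scaled by detected probes, 2 lower among probes measured on all 4 arrays or without SerpinB2-/- replicate 1, and 1 higher and 2 lower with a trended fit. The insulin receptor Insr (-0.03 ± 0.09) and the adaptor Irs1 (-0.02 ± 0.07) were near 0. The adaptor Irs2 was the lowest of the list, with 3019 and 3149 units in wild type against 2599 and 2252 in SerpinB2-/- cells (-0.35 ± 0.09, adjusted p = 0.0591), and it passed in these settings other than scaling by the median. The growth hormone receptor Ghr, which drives Igf1 in the liver, was at -0.05 ± 0.06 at its brightest probe. Its second probe, also bright, was at 0.26 ± 0.11 (adjusted p = 0.173 by limma) and did not pass, so its probes differed in sign. Of the 4 genes of growth hormone input 0 passed (1 at an unadjusted p under 0.05). Serum carrier genes were dim, and neither Igfals nor Igfbp1 was well above background in any sample. Igfals encodes the third part of the circulating complex with Igfbp3, and Igfbp1 is the neighbour of Igfbp3 that responds to insulin. Igfbpl1, a dim gene for an IGFBP-like secreted protein, gave 51.8 and 54.8 units in wild type against 37.0 and 29.5 in SerpinB2-/- cells (-0.69 ± 0.12, adjusted p = 0.0262 by limma). It was well above background in 1 of the SerpinB2-/- samples, and it did not pass after normexp correction (-0.25, adjusted p = 0.0554), after quantile normalization (-0.55, adjusted p = 0.0685) or without either wild type replicate.

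Among genes that cut binding proteins or restrain this, 2 rose and 3 fell of 10 measured (20% and 30%, against 6.03% and 9.76% of all genes). Pappa, the protease of Igfbp4 and Igfbp5, rose, with 670 and 556 units in wild type against 889 and 1083 in SerpinB2-/- cells (0.69 ± 0.14, adjusted p = 0.0346 by limma). Stc2, a secreted inhibitor of that protease, rose as well, with 322 and 310 units in wild type against 470 and 514 in SerpinB2-/- cells (0.64 ± 0.07, adjusted p = 0.0110). The other stanniocalcin, Stc1, gave 42.7 and 52.0 units in wild type and was not well above background in either SerpinB2-/- sample, at least 1.76-fold lower (adjusted p = 0.0287). With normexp correction Stc1 did not pass (-0.26, adjusted p = 0.174). Plau, the urokinase gene whose product Serpinb2 inhibits, fell by 0.68 ± 0.12, and the lysosomal protease gene Ctsd fell by 0.38 ± 0.06, also at a second probe (-0.72 ± 0.10). Pappa2, the related protease of Igfbp3 and Igfbp5, was not measured at any of its 3 probes.

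Genes tied to Igf2 by RNA binding or by imprinting moved in both directions. Of 9 measured, 2 were higher and 4 lower (22.2% and 44.4%, against 6.03% and 9.76% of all genes). Cdkn1c, the imprinted inhibitor of cyclin-dependent kinases that lies in the same imprinted region as Igf2, gave 4874 and 4622 units in wild type against 2763 and 2571 in SerpinB2-/- cells (-0.83 ± 0.07, adjusted p = 0.00727 by limma). The paternally expressed genes Mest and Peg3 fell by 0.51 ± 0.07 and 0.52 ± 0.09. Mest fell at its further 2 probes too (-0.75 ± 0.07 and -0.96 ± 0.06), while the second probe of Peg3 did not pass (-0.37 ± 0.11). Plagl1, a zinc finger regulator of imprinted genes, rose at its brightest probe (1565 and 1530 units in wild type, 2277 and 2241 in SerpinB2-/- cells, 0.55 ± 0.06) and at a second one (0.46 ± 0.06). A dimmer probe of Plagl1 fell (-0.49 ± 0.06) and the last was at 0.04 ± 0.08, so its probes disagreed. H19, the non-coding neighbour of Igf2, was at -0.48 ± 0.26 and did not pass. Of the RNA-binding proteins named for Igf2, Igf2bp1 fell by 0.40 ± 0.06 and Igf2bp3, a dim gene, rose by 0.76 ± 0.16 (adjusted p = 0.0411), while Igf2bp2 did not pass (0.19 ± 0.06). With normexp correction Igf2bp3 no longer passed (0.47, adjusted p = 0.0502), nor in the authors' deposited table (0.74, adjusted p = 0.0603 by limma).

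Of the secreted proteins that share an IGFBP-type domain, 1 of 6 measured fell and 0 rose (16.7% and 0%, against 9.76% and 6.03% of all genes). Esm1, an endothelial proteoglycan, gave 31065 and 30823 units in wild type against 6907 and 12313 in SerpinB2-/- cells (-1.75 ± 0.27, adjusted p = 0.0201 by limma). As at Igfbp2, SerpinB2-/- replicate 1 was the lowest sample. Esm1 no longer passed without either wild type replicate. Of the 13 endothelial markers 11 fell too, and whether the fall of Esm1 is tied to theirs was not tested. The matricellular genes Ccn1 and Ccn2, targets of the YAP pathway, did not pass (0.23 ± 0.06 and 0.05 ± 0.08).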

How the data were processed

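The deposited intensity values are scanner output of Agilent Feature Extraction 10.7.3.1, 1 file per array, background-subtracted and detrended per the file headers; 150 ng of RNA was labelled with Cy3, per the labels. The 4 arrays shared 1 scan time, so scan and genotype were not confounded. The authors' deposited table of processed intensity, with a floor of 4 and no description, served as an alternative.

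Control spots (17263) and outlier spots were left out, log2 signals of a probe's spots were averaged, and each array's 75th percentile was subtracted. Probes with more than 50% of spots well above background on both arrays of a genotype were fitted with limma 3.58.1 in R 4.3.3 (lmFit, eBayes), 1 row per probe, adjusted by Benjamini-Hochberg. Intervals are 95%. The bound ("at least") given for Serpinb2 sets the bright group against the lowest signal well above background on each array. The number of arrays limits the precision, and with 2 against 2 the smallest exact p of 1 probe would be 0.333.

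Members and lists were chosen with earlier results of these data known. Named were all members, pathway genes past the threshold plus Insr, Irs1, Irs2, Pappa, Igfals and Ghr, and the 2 highest and 2 lowest of each marker list; other names were chosen after their values were seen. Older symbols were updated through RefSeq accessions. The fit was tested on simulated data. Alternatives were other background corrections, scalings, filters on dim probes, probe summaries, variance models and thresholds, the replicate number as a block, and each array left out in turn.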

Additional observations from a re-analysis of the deposited data

How the results depend on the processing

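Over all tested probes 3858 passed (1400 higher, 2458 lower). The count was 6843 with median scaling (5220 higher, 1623 lower), 4 with dim probes kept (7714 at an unadjusted p under 0.05 by limma), 544 and 6564 at thresholds of 0.01 and 0.1, and 1218 to 2245 with 1 array left out. Of the IGF axis probes 2 passed, against 4 with median scaling, 0 with dim probes kept (6 at an unadjusted p under 0.05 by limma), 6 with a trended fit, 1 and 6 at the 2 thresholds, and 1 to 5 with 1 array left out. Of the other pathway probes 23 of 98 passed, against 0 with dim probes kept (35 at an unadjusted p under 0.05), 13 and 15 of 62 genes with the brightest or the mean probe, 3 at 0.01, and 8 to 20 with 1 array left out. With an array left out, the lone sample of its group is assumed to vary like the other group. The trended fit raised calls outside the IGF axis too: 7 fibroblast and pericyte markers were higher in place of 4. Endothelial and leukocyte markers kept their counts under it (11 and 8 lower). With the replicate number as a block 4 IGF axis probes passed, both Igfbp2 probes among them (adjusted p = 0.0387 and 0.0352); replicate deviations correlated at 0.21, but 2 pairs do not show pairing. The difference of Igf1, not called, turned its sign: at A_55_P2085984 it was 0.035 with quantile normalization, 0.091 when scaled by the median and -0.19 to 0.11 with 1 array left out. At A_55_P2031631 it was -0.013 when scaled by detected probes and -0.11 to 0.17 with 1 array left out, and at A_55_P2085974 -0.070 to 0.34. The causes were not tested. No other IGF axis probe and no called pathway gene turned its sign under any alternative run. Low signal limits Igf2, 1 probe of Igf1 and the second probe of Igfbp3.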

Other observations

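Several signalling genes that did not pass at their brightest probe passed at a dimmer one, by limma with adjustment over all probes. The kinase gene Pdpk1 was higher at a further probe (0.37 ± 0.06), in the direction of its brightest (0.26 ± 0.07). Akt2 was lower at 1 of its 4 probes (-0.50 ± 0.09) and at 0.02 ± 0.06 at the brightest, and Ptpn1, which removes phosphate from the insulin receptor, was lower at its second (-0.35 ± 0.07). These probes were chosen after their values were seen.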
